A study of Homo sapiens with 24 samples.

Results

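The genes described here encode the collagens other than type I, on arrays of 2 human osteosarcoma cell lines. A gene was included where a probe set carried its symbol alone and the symbol had the form COL, a number, A and a number, with COL1A1 and COL1A2 left out. This gave 41 genes with 110 probe sets, of 18132 genes with 44988 single-gene probe sets in all. U2-OS and SJSA-1 are established lines grown from osteosarcomas, each a single line, so a difference between them is a difference between these lines. The cells were kept in DMEM with fetal bovine serum. For 6 h they received DMSO, the solvent, or 25, 100 or 400 nM of THZ2, which binds covalently to the transcription kinase CDK7 and inhibits it. The 24 arrays (PrimeView) form 8 groups of 3. The labels do not say whether the 3 arrays of a group came from separate cultures, so p-values measure the spread between arrays, which may be technical.

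Collagens are proteins of 3 chains wound into a triple helix, most of them secreted and some spanning the cell membrane. Their genes fall into structural classes. Fibrillar collagens build the banded fibres of bone, cartilage and connective tissue, and fibril-associated collagens sit on the surface of these fibres. Type IV collagens form the mesh of basement membranes, and type VI collagens form beaded filaments around cells. In bone, type I is the main fibre and the minor fibrillar types III, V and XI join it or are laid down beside it.

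A deposited value is a probe set intensity on a linear scale, and all differences below are on the scale log2(intensity + 16), which understates changes of dim genes. Each is given ± its standard error with 3 arrays a group and an adjusted p from limma with Benjamini-Hochberg adjustment over the 16175 genes tested, and "rose", "fell", "higher" and "lower" stand for an adjusted p under 0.05. A gene was represented by its brightest probe set and tested if its highest group mean reached 12.73, the 30th percentile of all values. Of the 41 collagens, 35 were tested and 22 reached that level in all 8 groups. The 6 not tested were COL2A1, the cartilage fibre; COL10A1, the growth plate collagen; COL4A3; COL6A5; COL6A6 and COL28A1. Their highest group mean was 11.7 and their highest single array read 13. Intensities of different probe sets are not compared with each other here, since probes differ in brightness.

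Several facts about the arrays bear on the comparisons. Pairs of arrays shared identical values at 1.67 to 5.47% of probe sets within U2-OS from DMSO to 100 nM, at 1.47 to 2.42% within U2-OS at 400 nM and at 0.853 to 3.1% within SJSA-1, but at no more than 0.00405% across these 3 sets, so each set appears to have been normalized apart. A level set between the lines, and a U2-OS value at 400 nM set against DMSO, therefore cannot be told apart from a difference between normalization sets. The median intensity was 33.5 to 34.5 in U2-OS from DMSO to 100 nM, 36.6 to 37.3 in U2-OS at 400 nM and 23.4 to 25.5 in SJSA-1. The log2 ratio of the 3′ to the 5′ probe set of ACTB, a measure of RNA quality, was 1.85 to 2.08, 2.76 to 2.87 and 0.82 to 1.71 in the same sets. The mean log2 signal of the poly-A spike-ins, foreign RNAs added during labelling, was 5.42 to 6 in U2-OS and 6.4 to 8.84 in SJSA-1. When arrays were centred on these RNAs, the all-gene median difference of U2-OS became -0.32 at 100 nM (0.058 as deposited) and -0.15 at 400 nM (0.15 as deposited). That of SJSA-1 became -0.23 (0.057) and -0.5 (0.1), and that between the untreated lines -1.34 (-0.35). Each direction below is therefore relative to the deposited scale, and counts with spike-in centring are given with the main counts. Of 12 osteoblast lineage markers on the array, 9 reached the tested level in U2-OS and 7 in SJSA-1. Those below it in both lines were IBSP, DMP1 and PTH1R. Of 8 chondrocyte markers, 8 reached it in U2-OS, with a summed intensity of 1529.5 to 2391 over the groups, and 4 in SJSA-1, with 129.9 to 238. HAPLN1 alone gave most of the U2-OS sum, with group means of 1027 to 1792 there and 6.6 to 8.5 in SJSA-1. Of 5 blood and immune markers, CD3E, CD14, ITGAM and HBB reached it in U2-OS (summed intensity 122 to 177) and CD14 and HBB in SJSA-1 (89.6 to 146), while PTPRC, the defining marker, was below it in every group (3.4 to 6.5). Of 6 endothelial markers, 6 reached it in U2-OS (summed intensity 137 to 189.8) and 4 in SJSA-1 (86.5 to 131). For epithelial markers the counts were 6 and 5 of 6 (267 to 477 and 139.6 to 265). For nervous tissue markers they were 7 and 4 of 7 (314 to 400.4 and 118 to 155). Reaching the level in U2-OS thus did not single out a cell type. The part of these markers in the collagen values was not tested. The labels' extraction text describes a sample of another tissue, while tissue and disease tags name bone and osteosarcoma.

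The first comparison was between the untreated lines. On the deposited scale SJSA-1 read higher for the fibrillar collagens COL5A2 and COL3A1 and for COL7A1, COL6A1 and COL13A1. U2-OS read higher for COL6A3, COL22A1, COL16A1, COL11A1 and COL12A1. With spike-in centring COL7A1, COL6A1 and COL13A1 were not called. In all, 11 of the 35 tested collagens were higher in SJSA-1 and 19 were lower, where 85.2% of all genes differed (21.7% higher and 63.5% lower). Among the 19, COL4A4, COL14A1, COL21A1, COL23A1 and COL24A1 stayed under the tested level in every SJSA-1 group. They were tested through U2-OS alone, so their place among the lower genes is no independent result. COL4A4 and COL14A1 had both DMSO means under that level. The median difference was -0.3 over the collagens and -0.35 over all genes, so the collagens as a group lay where other genes lay. With spike-in centring 3 were higher and 28 lower, and with median centring 15 and 17. Of all genes 94% and 78.1% were called on these scales, counting both directions. A difference of at least 1 on the log2 scale was reached by 5 collagens higher and 5 lower in SJSA-1, beside 19.4% of all genes either way. The 3 arrays of SJSA-1 did not overlap those of U2-OS for 29 collagens, all of them called, against 86.5% of all genes.

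**Figure D1:**
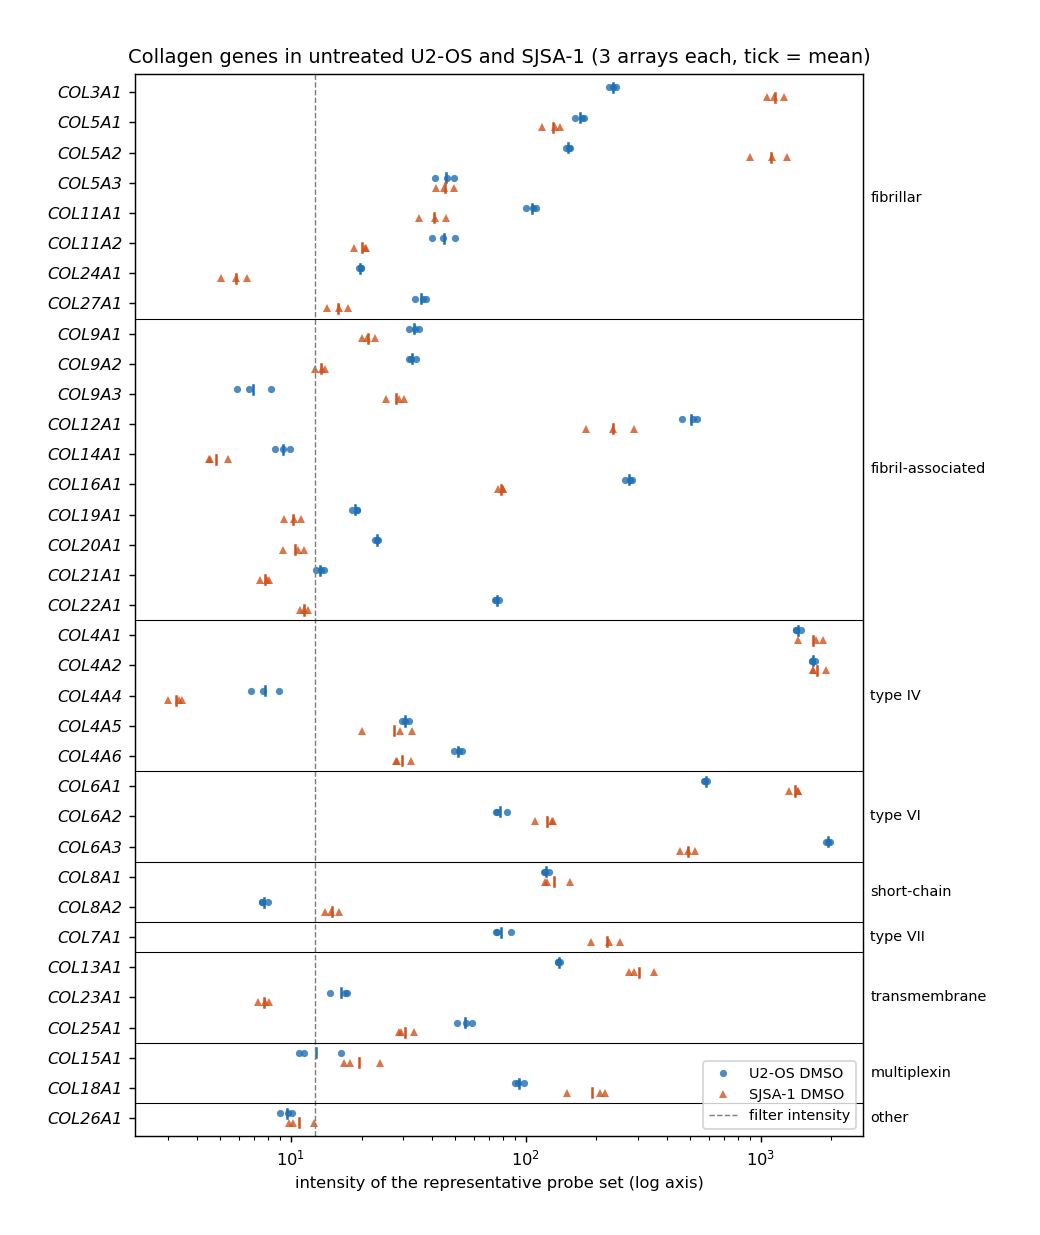
Intensity of the 35 tested collagens in the DMSO arrays of U2-OS and SJSA-1, on a log axis, with the 3 arrays of each line as points, their mean as a tick and the tested level of 12.73 as a dashed line. COL5A2 and COL3A1 lie well above in SJSA-1, and COL6A3, COL22A1 and COL16A1 well above in U2-OS.

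Among the 8 tested fibrillar collagens, 2 were higher and 5 lower in SJSA-1 (2 and 6 with spike-in centring). Of all genes 21.7% were higher and 63.5% lower. COL5A2, a chain of the type V collagen that helps start fibrils, read 149, 153 and 154 in the DMSO arrays of U2-OS and 1296, 1121 and 898 in those of SJSA-1. Every SJSA-1 array lay far above every U2-OS array, a 7.26-fold difference of means (2.72 ± 0.13, adjusted p = 1.16e-16 by limma). COL3A1, the single chain of type III collagen, read 227, 242 and 234 against 1252, 1136 and 1067, a 4.93-fold difference (2.22 ± 0.13, adjusted p = 8.71e-15 by limma). Both stayed higher in SJSA-1 with spike-in centring, by 1.4 and 0.87 on the log2 scale. Their probe sets did not all repeat this for COL5A2: 3 of its 5 tested probe sets were higher in SJSA-1, and 2 dim ones gave -0.097 and -0.12 without a call. For COL3A1 all 5 were higher, by 1.89 to 2.7. COL11A1, a chain of the type XI collagen of cartilage fibrils, went the other way. It read 100.1, 107 and 111 in U2-OS and 45.9, 41.1 and 35 in SJSA-1, with no overlap and a 2.6-fold difference (-1.11 ± 0.11, adjusted p = 2.35e-10 by limma). COL11A2 (-0.75), COL24A1 (-0.71), COL27A1 (-0.7) and COL5A1 (-0.36) were also lower in SJSA-1. COL24A1 had an SJSA-1 mean of 5.82, under the tested level, and U2-OS was at least 1.55-fold above. The COL5A1 call held for its brightest probe set alone, since 2 of its other probe sets were higher in SJSA-1, by 0.34 and 1.13, and with median centring its value was 0.048. COL5A3 was not called on the deposited scale (-0.0077 ± 0.092, adjusted p = 0.94 by limma), but it was called higher in SJSA-1 with median centring (0.32, adjusted p = 0.00304) and joint quantile normalization (0.21, adjusted p = 0.0379).

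The fibril-associated collagens were the class most often lower in SJSA-1, with 9 of 10 lower and 1 higher (9 and 1 with spike-in centring too). Of these 9, COL14A1 and COL21A1 were tested through U2-OS alone. Of all genes 63.5% were lower and 21.7% higher. The class median was -0.49, against -0.35 over all genes. COL22A1, a collagen of tissue junctions such as that of muscle and tendon, read 74.3, 76.7 and 74.9 in U2-OS and 11.4, 10.9 and 11.8 in SJSA-1, under the tested level. U2-OS was at least 5.92-fold above SJSA-1, a bound that sets the SJSA-1 arrays at that level (-1.74 ± 0.063, adjusted p = 1.01e-19 by limma). COL16A1 read 284, 278 and 264 against 76.1, 79.9 and 79.9, a 3.5-fold difference (-1.62 ± 0.086, adjusted p = 6.78e-16 by limma). COL12A1, a long collagen on the surface of type I fibrils, read 461, 534 and 514 against 288, 234 and 181, a 2.15-fold difference (-1.07 ± 0.15, adjusted p = 3.06e-07 by limma). In all 3 genes the lowest U2-OS array was above the highest SJSA-1 array. COL9A2 (-0.73), COL20A1 (-0.57), COL9A1 (-0.41), COL19A1 (-0.41), COL21A1 (-0.3) and COL14A1 (-0.28) made up the rest of the lower ones, with COL14A1 below the tested level in both untreated lines. The SJSA-1 means of COL20A1, COL19A1 and COL21A1 (10.4, 10.3 and 7.8) were under that level, so U2-OS was at least 1.82-fold, 1.48-fold and 1.05-fold above. The exception was COL9A3, the third chain of type IX collagen, with a mean of 6.92 in U2-OS, under the tested level, and 28.1 in SJSA-1, at least 2.21-fold higher (0.94 ± 0.077, adjusted p = 7.83e-12 by limma). The type IX chains thus stood in opposite order between the lines, COL9A1 and COL9A2 lower and COL9A3 higher in SJSA-1.

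The type VI chains, which assemble 1 of each into a filament unit, also differed in opposite directions. COL6A1 read 581, 575 and 591 in U2-OS and 1314, 1438 and 1438 in SJSA-1, a 2.4-fold difference (1.24 ± 0.076, adjusted p = 1.64e-14 by limma). COL6A3, the largest chain, read 1936, 1974 and 1903 in U2-OS and 491, 526 and 455 in SJSA-1, 3.95-fold lower in SJSA-1 (-1.95 ± 0.098, adjusted p = 1.97e-16 by limma). Neither gene's groups overlapped. COL6A2, which lies next to COL6A1 on chromosome 21, was higher in SJSA-1 by 0.57, but 2 of its other probe sets were lower there, by -0.52 and -0.48. With spike-in centring COL6A1 gave -0.14 and COL6A2 -0.65, while COL6A3 stayed lower at -3.33, so the direction for the first 2 chains rests on the scale. Centring scales all genes of an array by 1 factor, so it could not test the gap between COL6A1 and COL6A3. Over the tested probe sets COL6A1 gave 0.014 to 1.24 and COL6A3 gave -1.95 to -0.33.

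The remaining classes held few genes. COL7A1, the anchoring fibril collagen of skin, read 86.2, 75.6 and 74.6 in U2-OS and 189, 252 and 226 in SJSA-1, 2.82-fold higher in SJSA-1 (1.32 ± 0.11, adjusted p = 2.17e-11 by limma). COL13A1, a transmembrane collagen of cell adhesion sites, read 137, 137 and 139.5 against 288, 352 and 274, 2.21-fold higher in SJSA-1 (1.05 ± 0.091, adjusted p = 2.51e-11 by limma). The SJSA-1 arrays of both genes lay above all of those of U2-OS, but with spike-in centring COL7A1 gave 0.081 and COL13A1 -0.25, neither called. COL18A1, the multiplexin that carries the endostatin domain, was 2.04-fold higher in SJSA-1 (0.9 ± 0.11, and -0.36 with spike-in centring). Its other probe set had DMSO means of 16.9 in U2-OS and 189 in SJSA-1 (2.63, adjusted p = 3.67e-19 by limma). COL15A1, the other multiplexin, was higher by 0.3. Of the other transmembrane collagens, COL25A1 (-0.61) and COL23A1 (-0.45; U2-OS at least 1.29-fold above an SJSA-1 mean under the tested level) were lower. The short-chain COL8A1, of endothelial and corneal sheets, did not differ by the test (0.1 ± 0.11, adjusted p = 0.397 by limma), and COL8A2 was higher by 0.39 (at least 1.18-fold above a U2-OS mean under the tested level).

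The type IV genes lie as head-to-head pairs that share a start region, and their values across the 8 groups could be set side by side with that layout. The pairs are COL4A1 with COL4A2 on chromosome 13, COL4A3 with COL4A4 on chromosome 2 and COL4A5 with COL4A6 on the X chromosome, with 0 protein-coding genes between the partners. The stretches between the annotated starts are shown because both partners of a pair start from them (RefSeq, GRCh38.p14, 5′ to 3′ on the plus strand). Capitals mark a GC box, which is GGGCGG, and the box named for its letters, CCAAT, on either strand. The first 2 are whole, and the third is the 250 bases next to the COL4A5 start, of 379 between the starts.
COL4A1 and COL4A2, chr13:110307158-110307283: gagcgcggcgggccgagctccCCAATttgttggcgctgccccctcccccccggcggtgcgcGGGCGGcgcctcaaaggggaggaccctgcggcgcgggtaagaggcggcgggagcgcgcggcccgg
COL4A4 and COL4A3, chr2:227164489-227164623: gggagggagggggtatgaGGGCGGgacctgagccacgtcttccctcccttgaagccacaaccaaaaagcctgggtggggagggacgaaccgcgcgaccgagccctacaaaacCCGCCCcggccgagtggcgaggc
COL4A6 and COL4A5, chrX:108439588-108439837: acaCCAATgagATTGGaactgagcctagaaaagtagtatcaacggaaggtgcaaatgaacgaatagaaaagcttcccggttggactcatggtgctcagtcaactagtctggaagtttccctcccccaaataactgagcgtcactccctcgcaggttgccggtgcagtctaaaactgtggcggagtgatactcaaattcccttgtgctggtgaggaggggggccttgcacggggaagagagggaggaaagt
The chromosome 13 stretch is 126 bases with 80.2% G and C, 1 GC box and 1 CCAAT box. The chromosome 2 stretch is 135 bases with 68.1% G and C and 2 GC boxes, and the X stretch has 51.2% G and C and 2 CCAAT boxes. Of 34943 promoters cut to the same lengths, 34.5%, 35.5% and 42.5% hold a GC box and 21.1%, 22.1% and 32.0% a CCAAT box, so a match is common and describes the letters alone. On both strands TATAAA, the AP-1 motif (TGA, any base, TCA) and the RUNX motif (TGTGGT) had 0 matches in these 3 stretches.

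COL4A1 and COL4A2, the 2 chains of the common basement membrane network, gave differences between the untreated lines of 0.21 ± 0.092 for COL4A1 (adjusted p = 0.0363 by limma) and 0.062 ± 0.077 for COL4A2 (adjusted p = 0.455). Dimmer probe sets of the same genes gave other values: 1.32 and -0.38 for COL4A1, and 0.9 and 0.23 for COL4A2, all called. The COL4A1 call was lost without SJSA-1 DMSO replicate 1 (0.14, adjusted p = 0.195), and with spike-in centring both genes were lower in SJSA-1, by -1.18 and -1.33. At 400 nM in U2-OS the partners parted. COL4A1 fell by 0.36 on the log2 scale, from a mean of 1437 to 1115 (± 0.092, adjusted p = 0.000898 by limma), and COL4A2 rose by 0.26, from 1665 to 1999 (± 0.077, adjusted p = 0.0037). COL4A1's 2 other tested probe sets gave 0.68 and 0.1 there, so its direction depends on the probe set, and COL4A2 gave -0.14 with spike-in centring. In SJSA-1 it was COL4A2 that fell, by 0.2 at 100 nM and 0.29 at 400 nM, while COL4A1 gave -0.19 ± 0.092 at 400 nM (adjusted p = 0.0676 by limma). The COL4A2 call at 100 nM was lost without SJSA-1 DMSO replicate 2 (-0.14, adjusted p = 0.163).

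COL4A3 and COL4A4 encode chains of the mature kidney basement membrane. COL4A3 was below the tested level in every group. COL4A4 read 8.91, 6.78 and 7.64 in U2-OS with DMSO and 27.1, 28.7 and 31.3 at 400 nM, where it stood above the tested level for the only time, and it was 2.55 to 4.2 on all SJSA-1 arrays. The 400 nM arrays were at least 2.28-fold above DMSO (0.92 ± 0.036 on the log2 scale, 0.94 with spike-in centring). COL4A4, like COL14A1, was tested because of this group alone, so it had to differ there and its p is not given. COL4A5 rose in U2-OS at 400 nM from a mean of 30.7 to 63.7 (0.76 ± 0.1) and COL4A6 from 51.6 to 67.3 (0.3 ± 0.09; -0.018 with spike-in centring). In SJSA-1 both were raised at 400 nM, by 0.42 and 0.38 (-0.2 and -0.26 with spike-in centring), while at 100 nM COL4A5 passed the test (0.3 ± 0.1) and COL4A6 did not (0.2 ± 0.09, adjusted p = 0.0651 by limma). COL4A5 at 100 nM lost its call without SJSA-1 DMSO replicate 3 (0.17, adjusted p = 0.177).

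**Figure D2:**
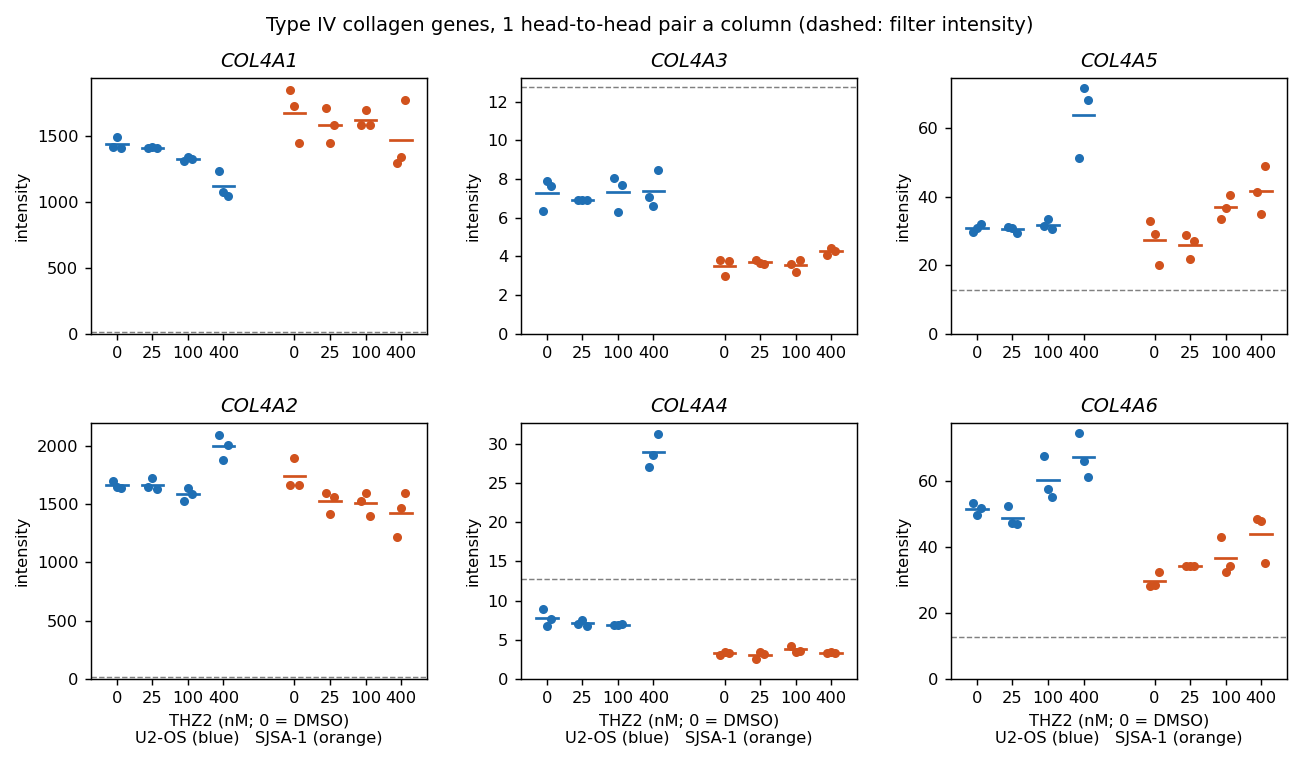
Intensity of COL4A1 to COL4A6 on each array by THZ2 dose and line, with 1 column for each head-to-head pair. Within U2-OS, COL4A4 stands above its DMSO range of 6.78 to 8.91 on the 3 arrays at 400 nM alone. In both lines COL4A3 stays low throughout.

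The second question was how these transcripts responded to THZ2. At 25 nM no collagen was called in U2-OS by limma, where 0.0804% of all genes were. The median was -0.01 over the collagens and -0.0023 over all genes, and the groups did not overlap for 8 of 35 collagens against 24% of all genes. With only the groups compared in the fit, 2 collagens were called, both lower, beside 5.01% of all genes.

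In SJSA-1, 4 collagens fell at 25 nM and none rose, where 8.25% of all genes were called (1.97% higher and 6.28% lower). They were COL8A1, COL13A1, COL15A1 and COL27A1. COL8A1 read 123, 154 and 120.3 with DMSO and 79.3, 63.1 and 60.5 at 25 nM, and then 120.3, 146 and 123 at 100 nM and 129, 117 and 170.1 at 400 nM. All 3 arrays at 25 nM lay below every other SJSA-1 array, a 1.96-fold fall (-0.83 ± 0.11, adjusted p = 8.14e-06 by limma) followed by a rise of 0.8 ± 0.11 from 25 to 100 nM. COL13A1 was also lowest at 25 nM, with 288, 352 and 274 at DMSO, 231, 202 and 211 at 25 nM, 333, 365 and 300.2 at 100 nM and 396, 375 and 388 at 400 nM. The 25 nM arrays were again the lowest, with no overlap (-0.47 ± 0.091, adjusted p = 0.000796 by limma), and all 4 of its tested probe sets fell, by 0.38 to 0.52 on the log2 scale. Its rise from 25 to 100 nM was 0.59 ± 0.091. COL8A1 had 1 tested probe set, so it has no second probe set beside it. At 400 nM COL8A1 was not called against DMSO (0.051 ± 0.11, adjusted p = 0.687 by limma), while COL13A1 was (0.33 ± 0.091, adjusted p = 0.00256).

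COL15A1, a basement membrane zone multiplexin, read 23.9, 17.8 and 16.8 with DMSO and 12.7, 8.88 and 10.2 at 25 nM, at or below the tested level, and it stayed low at 100 nM (11.6, 10.6 and 10.6) and 400 nM (12.8, 12.4 and 15.1). The falls were at least 1.53-fold at 25 nM (-0.41 ± 0.074, adjusted p = 0.000362 by limma) and -0.39 and -0.27 at the higher doses. COL27A1, a fibrillar collagen of cartilage, gave -0.19 ± 0.057 at 25 nM (adjusted p = 0.0338 by limma), a call that was lost in 5 of the 6 fits without 1 array of the 2 groups, with an adjusted p of up to 0.176. With spike-in centring none of the 4 was called, beside 0.804% of all genes. The values were -0.87 for COL8A1 (adjusted p = 0.0652 by limma), -0.55 for COL13A1, -0.41 for COL15A1 and -0.2 for COL27A1. The step from 25 to 100 nM, a comparison added after the values were seen, raised 11 collagens and lowered none, against 41.6% of all genes called (18.6% higher and 23.1% lower). None of the 11 was called with spike-in centring, beside 23.8% of all genes. COL23A1 among the 11 had both means under the tested level. After COL8A1 and COL13A1 the largest steps were those of COL6A2 (0.57), COL5A1 (0.45), COL5A3 (0.38) and COL9A3 (0.37).

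**Figure D3:**
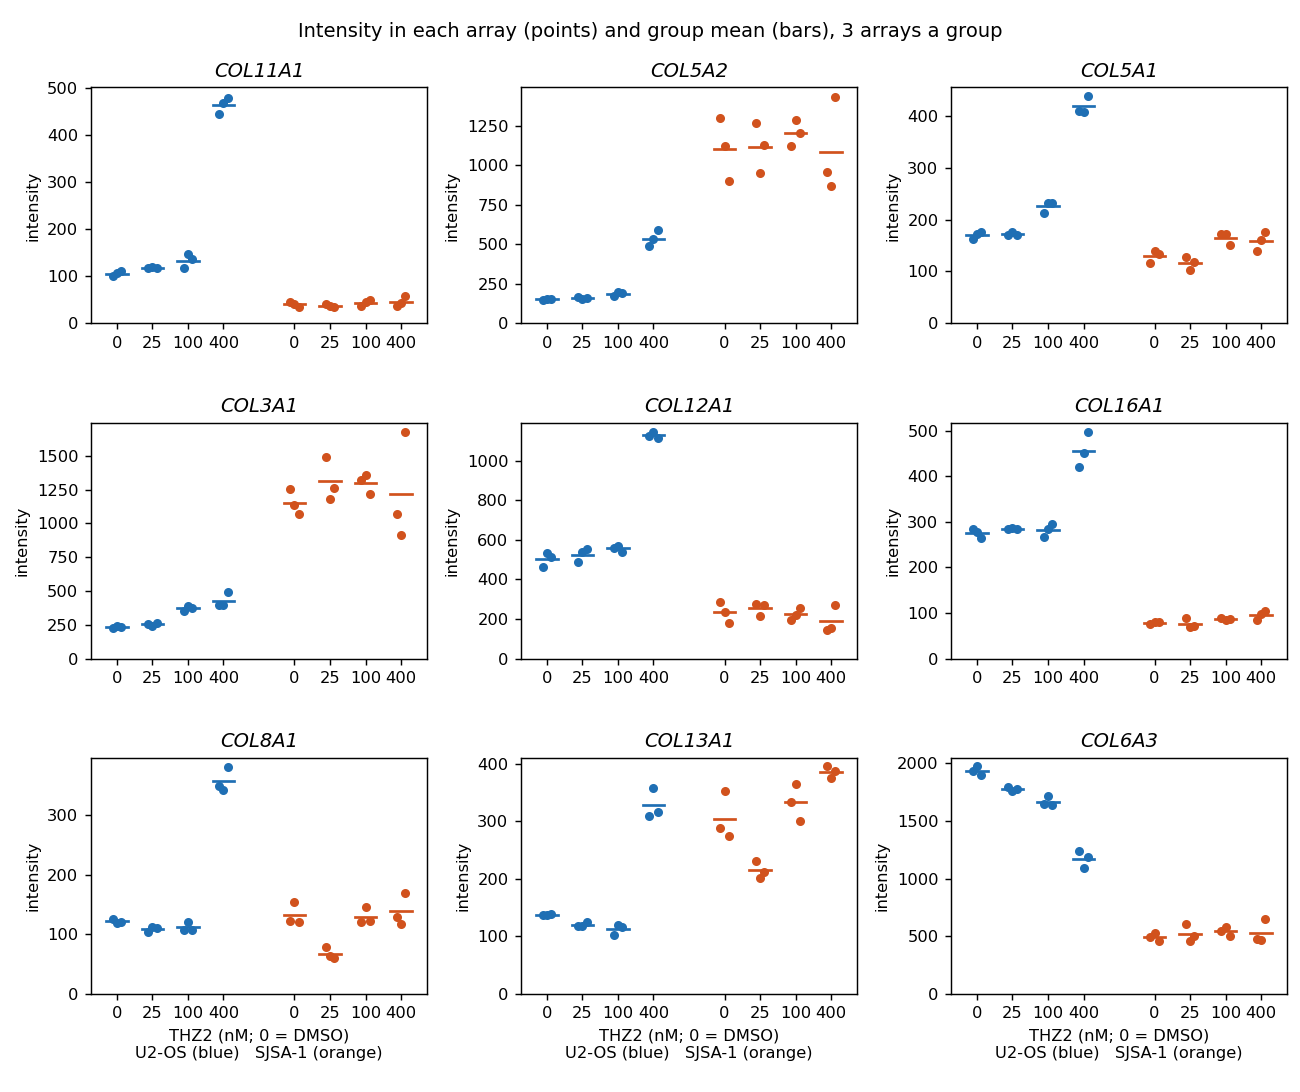
Intensity of 9 collagens on each of the 24 arrays, by line and THZ2 dose, 1 panel a gene. COL8A1 and COL13A1 dip at 25 nM in SJSA-1, and COL11A1, COL5A2, COL5A1, COL12A1, COL8A1 and COL13A1 read higher at 400 nM than at the other doses within U2-OS.

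At 100 nM, where both lines can be compared with their own DMSO arrays inside a single normalization set, 10 collagens rose and 2 fell in U2-OS, and 10 rose and 2 fell in SJSA-1. Of all genes 42% were called in U2-OS (19.8% higher and 22.2% lower) and 49.4% in SJSA-1 (24.4% and 25.1%). The median was 0.11 over the collagens and 0.058 over all genes in U2-OS, and 0.12 and 0.057 in SJSA-1. With spike-in centring no collagen rose in either line, and 9 fell in U2-OS and 2 in SJSA-1. Of all genes 44% and 30.5% were called with this centring, counting both directions. The direction of the group thus rests on the deposited scale. Without U2-OS DMSO replicate 2, 5 collagens were called in U2-OS.

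In U2-OS at 100 nM the fibrillar class held most of the rises, with 6 of 8 higher and 1 lower (0 and 1 with spike-in centring). COL3A1 rose most, from 227, 242 and 234 to 351, 389.5 and 373, with no overlap and a 1.59-fold change (0.63 ± 0.13, adjusted p = 0.000344 by limma; 0.17 with spike-in centring). The arrays at 25 nM lay between, at 258, 238 and 263. COL5A1 rose by 0.37 ± 0.09, from a mean of 171 to 226, and COL11A1 by 0.29, COL5A3 by 0.28, COL11A2 by 0.28 and COL24A1 by 0.14. COL5A2 did not pass with its brightest probe set (0.28 ± 0.13, adjusted p = 0.0895 by limma). All 5 of its tested probe sets were above 0, and 2 dimmer ones were called, at 0.44 and 0.47. COL6A1 and COL6A2 each rose by 0.25, while COL6A3 gave -0.22 ± 0.098 (adjusted p = 0.0766). COL20A1 (0.17) and COL23A1 (0.15) completed the rises. COL13A1 fell by 0.26 on the log2 scale, from 138 to 113, and COL27A1 by 0.17.

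In SJSA-1 at 100 nM the rises were led by COL6A2 (0.48 ± 0.1, from a mean of 123 to 179; adjusted p = 0.000226 by limma) and COL5A3, the third type V chain (0.41 ± 0.092, from 45.3 to 65.8; adjusted p = 0.000483). The COL6A2 arrays were 109.9, 131 and 129 with DMSO and 195, 197 and 146 at 100 nM, without overlap. COL5A1 (0.31), COL6A1 (0.3), COL4A5 (0.3), COL18A1 (0.28), COL9A3 (0.27), COL11A2 (0.23), COL20A1 (0.18) and COL23A1 (0.17) followed. COL23A1 passed the filter through U2-OS, and both its SJSA-1 means (7.72 and 10.6) were under the tested level, so no fold is given for it. COL20A1 stood at least 1.1-fold above a DMSO mean under that level. The COL18A1 call was lost without SJSA-1 DMSO replicate 1 (0.13, adjusted p = 0.298 by limma). COL15A1 and COL4A2 fell. By class 3 fibrillar, 2 type VI, 2 fibril-associated, 1 type IV, 1 transmembrane and 1 multiplexin gene rose, none of which did so with spike-in centring, where the 2 falls were 1 type IV and 1 multiplexin gene. COL3A1 was not called in SJSA-1 (0.17 ± 0.13, adjusted p = 0.275 by limma), where its DMSO arrays were already at 1067 to 1252, and the difference between the lines in its effect was -0.46 ± 0.19 (adjusted p = 0.1).

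**Figure D4:**
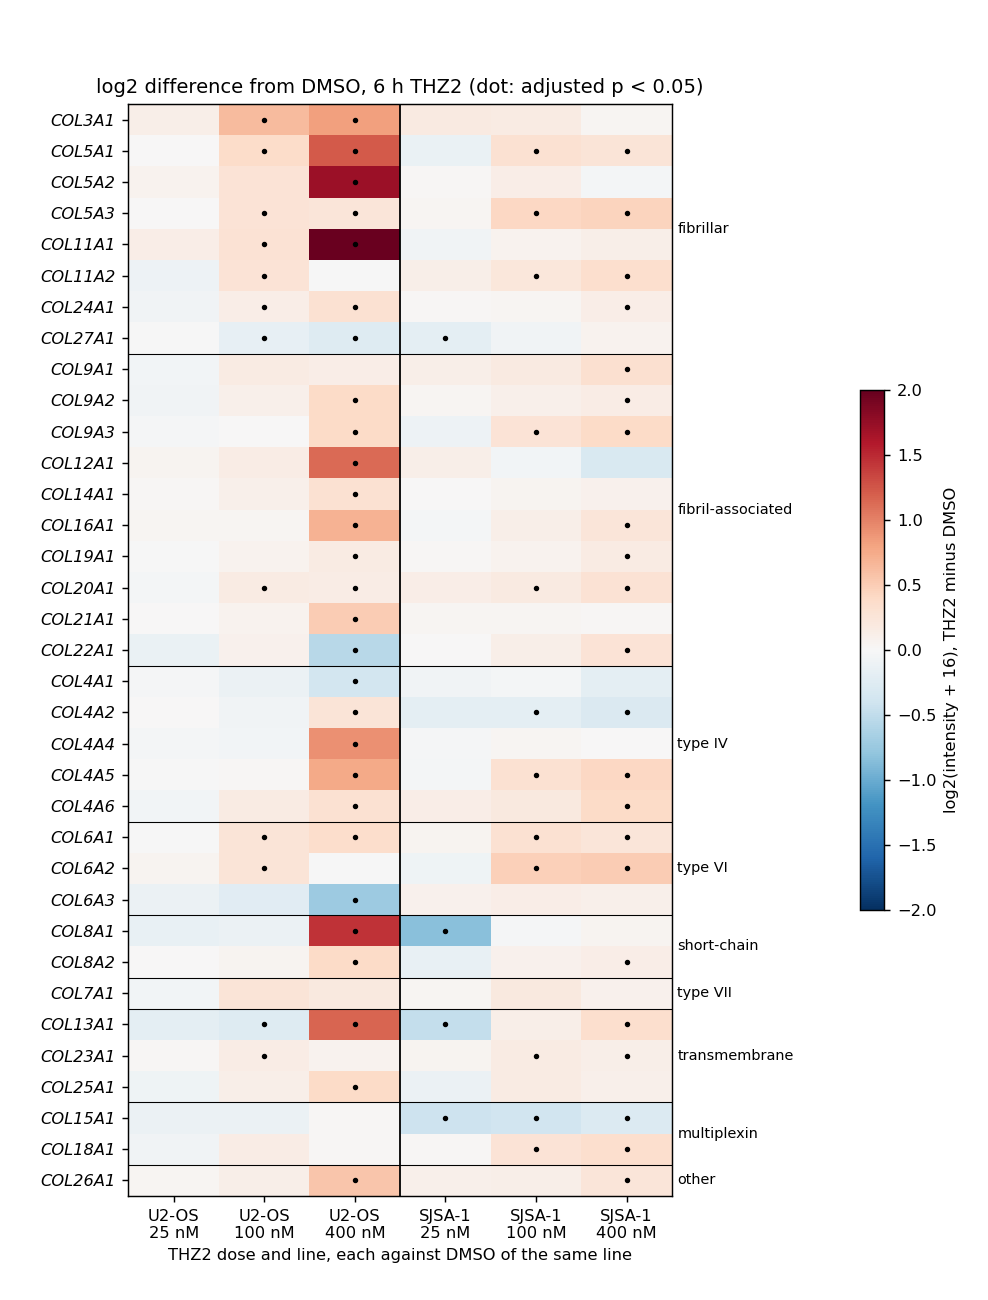
Log2 difference from DMSO of the 35 tested collagens at each THZ2 dose in each line, as colour from -2 to 2, with a dot where the adjusted p was under 0.05. The column for U2-OS at 400 nM holds the strongest colours, and the column for U2-OS at 25 nM has no dot.

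The difference between the lines in the response was tested directly. At 25 nM 1 collagen differed, COL8A1 (SJSA-1 effect minus U2-OS effect -0.68 ± 0.16, adjusted p = 0.026 by limma), where 1.09% of all genes did. In U2-OS its arrays were 125, 119 and 121 with DMSO and 103, 112 and 111 at 25 nM, a small shift beside the fall in SJSA-1. At 100 nM 1 collagen differed, COL13A1 (0.38 ± 0.13, adjusted p = 0.0383), where 16.9% of all genes did. It read 102, 120.3 and 116 at 100 nM in U2-OS, below its DMSO arrays. Both calls were lost with spike-in centring and in most fits without 1 array, with an adjusted p of up to 0.0918 for COL8A1 and 0.113 for COL13A1. The COL13A1 difference was also not called with joint quantile normalization (0.29, adjusted p = 0.0984) or with only the compared groups fitted (adjusted p = 0.0718).

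At 400 nM in U2-OS, 24 of 35 collagens rose and 4 fell, against 73.3% of all genes called (48.4% higher and 25% lower). With spike-in centring 13 rose and 5 fell, beside 44.1% of all genes called. The 24 include COL4A4 and COL14A1, which were tested through this group alone. The median was 0.31 over the collagens and 0.15 over all genes, and the groups did not overlap for 29 of 35, against 81.5% of all genes. These 3 arrays are a normalization set of their own and have the highest ACTB 3′ to 5′ ratios, 2.76 to 2.87, so dose and set cannot be told apart, and the part of RNA quality was not tested. Markers of other cell types moved at this dose as well: 6 of 6 epithelial markers rose, with a median of 0.58, and 5 of 7 nervous tissue, 3 of 6 endothelial and 3 of 4 tested blood markers rose, with medians of 0.28, 0.16 and 0.18. The nervous tissue list also held 1 fall, OLIG2, from a mean of 79.9 to 22.7 (-1.32). Of 9 tested osteoblast lineage markers 5 rose and 3 fell, and of 8 chondrocyte markers 4 rose and 1 fell. The part of these markers in the collagen values was not tested. A rise of at least 1 on the log2 scale was reached by COL11A1, COL5A2, COL8A1, COL5A1, COL13A1 and COL12A1, where 9.87% of all genes changed that much either way. All 6 stayed called with each of the 3 other scalings.

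Chains of types XI and V can assemble together in thin fibrils. Of them COL11A1, COL5A2 and COL5A1 rose most at this dose, COL5A3 rose by 0.24 (-0.075 with spike-in centring), and COL11A2 was not called (-0.007 ± 0.077, adjusted p = 0.939 by limma). A dimmer probe set of COL11A2 was called lower (-0.43, adjusted p = 6.83e-07 by limma), and another gave -0.12 without a call. COL11A1 read 100.1, 107 and 111 with DMSO, 117, 121 and 117 at 25 nM, 117, 148 and 136 at 100 nM and 445, 468 and 480 at 400 nM. The 400 nM arrays lay above all others, a 4.38-fold rise (1.98 ± 0.11, adjusted p = 3.09e-15 by limma; 1.66 with spike-in centring), and all 6 tested probe sets rose, by 1.59 to 2.31. In SJSA-1 COL11A1 stayed at 34.8 to 58.9 on every array. COL5A2 read 149, 153 and 154 with DMSO, 172, 201 and 193 at 100 nM and 488, 531 and 589.6 at 400 nM, a 3.52-fold rise (1.71 ± 0.13, adjusted p = 7.15e-12 by limma; 1.37 with spike-in centring). COL5A1 read 162, 173 and 177 with DMSO, 213, 232 and 232 at 100 nM and 409, 407 and 438 at 400 nM, a 2.45-fold rise (1.22 ± 0.09, adjusted p = 2.09e-12 by limma; 0.86 with spike-in centring). In both genes the 400 nM arrays lay above all other U2-OS arrays, and 4 of 5 and 4 of 4 tested probe sets rose. COL3A1, next to COL5A2 on chromosome 2, rose by 0.82 ± 0.13 to 393, 394 and 494 (0.45 with spike-in centring, adjusted p = 0.269), and 2 dim probe sets of COL3A1 gave -0.063 and -0.055. Of type I, COL1A1 rose by 0.55 ± 0.13 and COL1A2 by 0.39 ± 0.15 on the deposited scale. Both rose by less than COL11A1, COL5A2, COL5A1 and COL3A1, and by more than COL5A3. The median of these 2 type I genes was 0.47, against 0.31 over the 35 tested collagens beyond type I. Values of the type I genes with spike-in centring are not given here. Neither type I gene was called at 25 or 100 nM in either line or at 400 nM in SJSA-1.

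Outside the fibrillar class, COL8A1 read 125, 119 and 121 with DMSO and 349, 342 and 381 at 400 nM in U2-OS, a 2.93-fold rise (1.44 ± 0.11, adjusted p = 4.79e-12 by limma). COL13A1 read 137, 137 and 139.5 and then 309, 358 and 317, a 2.37-fold rise (1.16 ± 0.091, adjusted p = 8.32e-12) that all 4 of its probe sets shared, by 0.76 to 1.47. COL12A1 read 461, 534 and 514 and then 1126, 1142 and 1112, a 2.24-fold rise (1.14 ± 0.15, adjusted p = 1.86e-07). None of these groups overlapped. COL13A1 thus read lower than DMSO at 100 nM and higher at 400 nM in U2-OS. Of all genes 48.4% rose and 25% fell at this dose. The fibril-associated class had 8 rises and 1 fall (4 and 1 with spike-in centring), among them COL16A1 (0.69) and COL21A1 (0.5). The fall was COL22A1, from 74.3, 76.7 and 74.9 to 45.3, 45.3 and 47.4 (-0.56 ± 0.063, adjusted p = 9.55e-09 by limma).

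COL6A3 also fell, from 1936, 1974 and 1903 with DMSO to 1242, 1090.1 and 1190.1 at 400 nM, 1.65-fold lower (-0.72 ± 0.098, adjusted p = 2.71e-07 by limma; -1.12 with spike-in centring). Its arrays at 25 and 100 nM lay between, at 1760.1 to 1798 and at 1643 to 1714. A second bright probe set of COL6A3 gave -0.77, and a dim one 0.43. The partner chain COL6A1 rose by 0.35 (-0.045 with spike-in centring), with 1 of its 6 tested probe sets at -0.25, and COL6A2 was not called (-0.0037), although its 3 other probe sets gave 0.13 to 0.72. Probe sets of 1 gene were called in both directions for 4 of the 18 collagens with several tested probe sets, namely COL25A1, COL4A1, COL6A1 and COL6A3, against 16.8% of the 9903 genes of that kind.

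**Figure D5:**
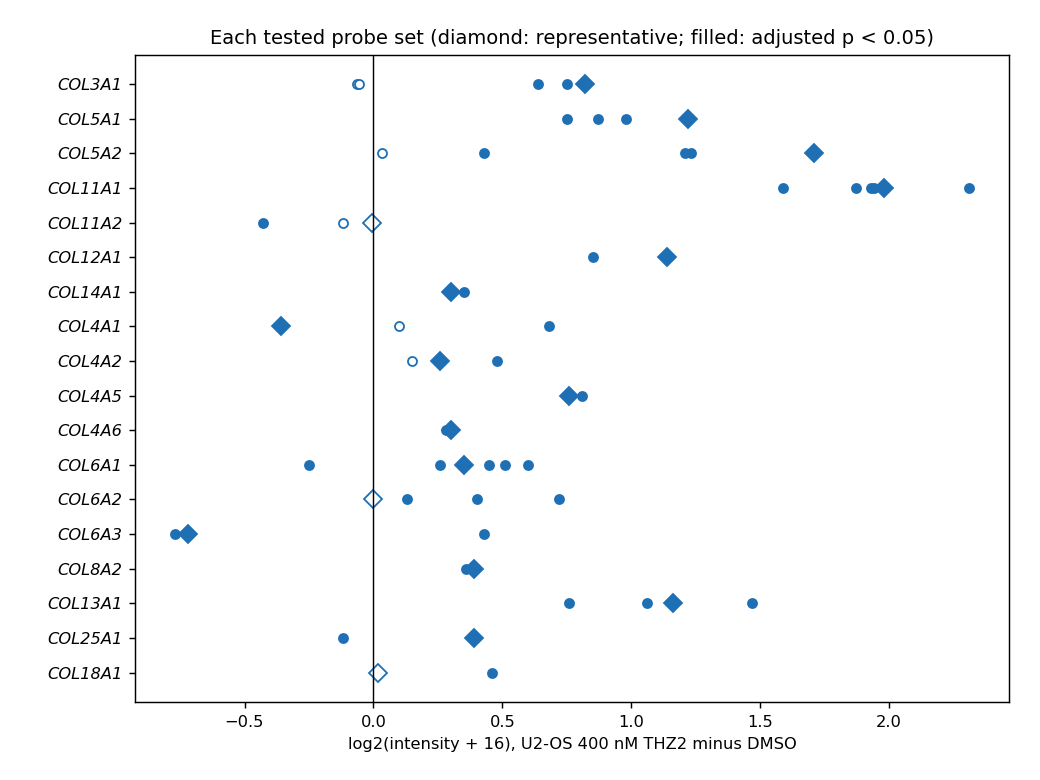
Log2 difference of U2-OS at 400 nM from DMSO for each tested probe set of the 18 collagens with several, with diamonds for the probe set that represents the gene and filled marks for an adjusted p under 0.05. COL11A1, COL13A1 and COL5A1 have all probe sets above 0, and COL25A1, COL4A1, COL6A1 and COL6A3 have called probe sets on both sides.

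The upstream regions of COL11A1 and COL13A1 are shown because these genes rose with every tested probe set at 400 nM in U2-OS, yet parted at 100 nM. Each line holds the 250 bases before the annotated start on the gene's own strand (RefSeq, GRCh38.p14; COL11A1 on the minus strand and COL13A1 on the plus strand), with the same 2 motifs in capitals.
COL11A1, chr1:103108523-103108772: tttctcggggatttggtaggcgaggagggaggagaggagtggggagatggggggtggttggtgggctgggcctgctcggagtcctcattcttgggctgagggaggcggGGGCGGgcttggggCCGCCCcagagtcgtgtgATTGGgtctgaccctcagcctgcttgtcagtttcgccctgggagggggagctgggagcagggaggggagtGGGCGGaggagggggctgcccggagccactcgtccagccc
COL13A1, chr10:69801656-69801905: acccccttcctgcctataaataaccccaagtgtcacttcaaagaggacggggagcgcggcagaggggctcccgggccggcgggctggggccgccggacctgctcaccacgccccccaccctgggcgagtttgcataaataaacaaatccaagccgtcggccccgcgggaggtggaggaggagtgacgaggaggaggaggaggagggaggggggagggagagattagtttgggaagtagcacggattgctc
The COL11A1 stretch has 68.8% G and C with 3 GC boxes and 1 CCAAT box, and the COL13A1 stretch has 64% with neither and with 1 match to TATAAA on either strand. Of promoters cut to 250 bases, 42.5% hold a GC box, 32.0% a CCAAT box and 10.8% a TATAAA match. The AP-1 and RUNX motifs, which 6.6% and 11.0% of them hold, had 0 matches in both.

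At 400 nM in SJSA-1, 20 collagens rose and 2 fell, against 66.4% of all genes called (41.4% higher and 24.9% lower), with a median of 0.14 over the collagens and 0.1 over all genes. With spike-in centring the split turned, to 0 higher and 18 lower, where 61.6% of all genes were called in either direction. Replicate 2 at this dose stood apart, with a spike-in mean of 8.84 against 7.69 and 7.18 and an ACTB ratio of 1.71 against 1.2 and 1.12. With spike-in centring and this array left out, 0 collagens rose and 5 fell, beside 39.7% of all genes called. That fit was added after the values were seen. Of the markers of other cell types, 4 of 6 epithelial, 5 of 6 endothelial and 2 of 4 tested blood ones rose, and 3 of 7 nervous tissue ones rose and 1 fell. Of 9 tested osteoblast lineage markers 6 rose and 2 fell, among them RUNX2, from a mean of 105 to 22.2. Of 8 chondrocyte markers 2 rose and 1 fell, SOX9, from 107 to 18.8. The part of these markers was not tested. No collagen changed by 1 or more on the log2 scale here, where 8.67% of all genes did. COL6A2 (0.5 ± 0.1), COL5A3 (0.44 ± 0.092), COL4A5 (0.42 ± 0.1) and COL9A3 (0.39) led, and 7 fibril-associated, 4 fibrillar, 2 type IV, 2 type VI and 2 transmembrane genes were among the rises. With spike-in centring no class held a rise, and the falls included 5 fibrillar genes and 2 genes each of the fibril-associated, type IV, type VI and transmembrane classes. Among the rises COL23A1 (0.11) and COL24A1 (0.14) had both means under the tested level. COL4A2 fell by 0.29 and COL15A1 by 0.27 on the log2 scale. Of the 6 genes that led in U2-OS at this dose, COL13A1 (0.33) and COL5A1 (0.26) rose, and COL11A1, COL5A2, COL8A1 and COL12A1 were not called. COL12A1 gave -0.31 ± 0.15 (adjusted p = 0.0775 by limma). Replicate 3 at 400 nM stood above the other 2 arrays for COL5A2 (1428 against 955 and 867), COL3A1 (1675 against 1067 and 917), COL6A3 (653 against 474 and 468) and COL12A1 (272 against 145 and 154). The difference between the lines at 400 nM was not tested, because the U2-OS arrays at this dose lie in a set of their own.

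The genes that fold, process, bind and degrade collagen were counted beside these changes, against the shares of all genes given above for each dose. At 100 nM these were 19.8% higher and 22.2% lower in U2-OS, and 24.4% and 25.1% in SJSA-1. With spike-in centring 44% of all genes were called in U2-OS and 30.5% in SJSA-1, counting both directions. At 100 nM, 6 of 20 folding and export genes rose and 0 fell in U2-OS, and 10 rose and 1 fell in SJSA-1; with spike-in centring 0 rose in either line, and 3 and 1 fell. FKBP14, a foldase of the endoplasmic reticulum, rose in both lines (0.38 and 0.62). P4HA2 (0.36), a prolyl hydroxylase subunit, and CRTAP (0.35) rose in U2-OS. TMEM38B (0.6) and PLOD2, a lysyl hydroxylase (0.47), rose in SJSA-1, and the transcription factor CREB3L1 fell there by 0.38. Of 13 processing and cross-linking genes, 6 rose and 1 fell in U2-OS, led by the lysyl oxidases LOX (0.44), LOXL2 (0.36) and LOXL1 (0.33) with ADAMTS3 at -0.3, and 5 rose and 1 fell in SJSA-1, led by PCOLCE (0.6), BMP1 (0.35) and PCOLCE2 (0.35) with TLL1 at -0.26. Spike-in centring gave 0 rises and 4 falls in U2-OS and 0 and 2 in SJSA-1.

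Of 10 collagen receptors, LAIR1 (0.22) rose in U2-OS, and in SJSA-1 the integrin chains ITGA11 (0.34) and ITGA1 (0.26) rose and ITGA2 fell by 0.49. With spike-in centring 0 rose, and 3 fell in U2-OS and 1 in SJSA-1. Of 13 tested degrading enzymes and inhibitors, 5 rose and 1 fell in U2-OS and 5 rose in SJSA-1 (1 and 2, and 0 and 1, with spike-in centring). MMP13 rose by 0.87 ± 0.076 and MMP9 by 0.56 in U2-OS, where the inhibitor TIMP2 rose by 0.34 and TIMP3 fell by 0.58, and MMP1 (0.6), MMP2 (0.5) and MMP3 (0.5) rose in SJSA-1. Of 34 other matrix genes, 9 rose and 3 fell in U2-OS and 11 rose in SJSA-1 (0 and 8, and 0 and 0, with spike-in centring). LUM, a proteoglycan of collagen fibres, rose in both lines (0.49 and 0.63). FBLN1 (0.36) and LAMA5 (0.33) rose in U2-OS, with LAMB1 and THBS1 at -0.38 and TGFBI at -0.32, and LAMA4 (0.45) and LAMB2 (0.42) rose in SJSA-1.

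At 400 nM, where 48.4% of all genes rose in U2-OS and 41.4% in SJSA-1, 17 of 20 folding and export genes rose in U2-OS and 12 in SJSA-1. The same counts were 10 and 5 of 13 processing genes, 5 and 3 of 10 receptors, 7 and 7 of 13 degrading enzymes and inhibitors, and 18 and 12 of 34 other matrix genes. Falls numbered 0, 0, 1, 1 and 4 in these lists in U2-OS and 1, 0, 0, 1 and 2 in SJSA-1. With spike-in centring 4, 3, 0, 2 and 5 rose and 1, 0, 2, 2 and 7 fell in U2-OS. In SJSA-1 0 of each list rose and 14, 6, 7, 6 and 22 fell. Of all genes 44.1% were called in U2-OS and 61.6% in SJSA-1 with this centring, counting both directions.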

How the data were processed

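The authors deposited 1 linear intensity per probe set and array. MAS5 and RMA are both named in the submitters' processing notes, and their versions and roles are not given in the sources used here. Of 49372 probe sets, 79 controls, 1832 with several gene symbols and 2473 without a symbol were left out. Values were taken as log2(intensity + 16) from the deposited intensity, with no new normalization. limma 3.58.1 in R 4.3.3 (lmFit, eBayes with an intensity trend) was fitted to 24 arrays and 8 group means, with 16 residual degrees of freedom and Benjamini-Hochberg adjustment within each contrast at 0.05. With 3 arrays against 3, an exact permutation test cannot go below p = 0.1, and the number of arrays limits the precision. A fold is the ratio of mean intensities; where a group mean was below 12.73 it is a lower bound, with that group's arrays set to at least this level.

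Every collagen could be named. Each array was given for collagens called in a dose contrast or between the DMSO groups with no overlap and a log2 difference of at least 1, and for others described in detail. From each list of collagen-related genes up to 3 members a direction and line were named at 100 nM, largest first. The members, classes and lists were chosen with earlier results of these data known, so they are not independent evidence. All 41 symbols are in RefSeq, and 31 had a promoter entry. The alternatives were other scalings, filters, pseudocounts, probe set rules, a fit on the compared groups alone, a replicate block and leaving out each array. Same-numbered arrays of a line correlated at -0.08 to 0.33 in U2-OS and -0.63 to 0.42 in SJSA-1. Their medians were 0.12 and 0.07, against -0.07 and 0.02 for arrays with other numbers. The numbers were not taken to pair samples in the main fit, although a weak shared effect is not excluded, above all in U2-OS.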

Additional observations from a re-analysis of the deposited data

Results flagged for a closer look

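The effect of THZ2 differed between the lines for 2 collagens by the test of the difference. COL8A1 fell in SJSA-1 at 25 nM and was not called in U2-OS (-0.15 ± 0.11), a difference of -0.68 ± 0.16 (adjusted p = 0.026 by limma), which was -0.23 when its 3 probe sets were averaged; the other 2 lie below the tested level. COL13A1 fell in U2-OS at 100 nM and gave 0.12 ± 0.091 in SJSA-1, a difference of 0.38 ± 0.13 (adjusted p = 0.0383 by limma), which was not called with joint quantile normalization (adjusted p = 0.0984) or with only the compared groups fitted (adjusted p = 0.0718). The groups of 3 arrays were too small for a check on single outlying arrays.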

How the results depend on the processing

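Leaving out each array in turn gave 0 to 0 collagens called at 25 nM, 5 to 10 at 100 nM and 26 to 29 at 400 nM in U2-OS. It gave 3 to 4, 9 to 12 and 17 to 22 in SJSA-1, 29 to 30 between the untreated lines, 0 to 1 and 0 to 2 for the line differences at 25 and 100 nM and 9 to 12 for the step from 25 to 100 nM. Over these fits 2408 gene values kept direction and side of the threshold, 91 lost a call, 21 gained one and 0 reversed. A value counts as reversed where its sign changed and it was called in the main fit, the other fit or both. The replicate block, which treats same-numbered arrays of a line as paired, gave 2 for the line difference at 100 nM and changed no other count by over 1.5 times (12 at 100 nM and 28 at 400 nM in U2-OS, 12 and 22 in SJSA-1). With only the compared groups fitted the counts were 2 and 20 at 25 and 100 nM in U2-OS, 14 at 400 nM in SJSA-1 and 2 for the line difference at 100 nM. In the same order 5.01%, 60.1%, 54.6% and 17.4% of all genes were called. The mean of probe sets gave 0 and 0 for the line differences, and median centring and joint quantile normalization each gave 2 at 100 nM. COL13A1 was among them with median centring, but it was not called with joint quantile normalization (0.29, adjusted p = 0.0984) or with only the compared groups (0.38, adjusted p = 0.0718). At 100 nM in SJSA-1 median centring gave 17 higher and 1 lower, beside 59.4% of all genes called. Other filters and pseudocounts moved no count by over 1.5 times and reversed no value. The cause of these changes was not tested.

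Spike-in centring gave 18 calls at 400 nM in U2-OS, where 44.1% of all genes were called. At 25 and 100 nM in SJSA-1 it gave 0 and 2 (0.804% and 30.5% of all genes). The line differences had 0 and 0 (0% and 4.35%) and the step 0 (23.8%). It reversed 66 values, some not called after centring, such as COL4A6 at 400 nM in U2-OS (adjusted p = 0.935 by limma). Others were not called on the deposited scale, such as COL3A1 at 400 nM in SJSA-1 (0.037). The 66 follow by comparison. At 100 nM in U2-OS these were COL11A1 (-0.14), COL11A2 (-0.1), COL19A1 (-0.24), COL20A1 (-0.15), COL22A1 (-0.34), COL23A1 (-0.13), COL24A1 (-0.17), COL5A1 (-0.082), COL5A3 (-0.11), COL6A1 (-0.23), COL6A2 (-0.17) and COL9A2 (-0.28). At 400 nM in U2-OS these were COL19A1 (-0.075), COL20A1 (-0.12), COL4A2 (-0.14), COL4A6 (-0.018), COL5A3 (-0.075) and COL6A1 (-0.045). At 100 nM in SJSA-1 these were COL11A2 (-0.073), COL18A1 (-0.2), COL20A1 (-0.038), COL23A1 (-0.023), COL4A5 (-0.071), COL5A1 (-0.16), COL6A1 (-0.23) and COL9A3 (-0.081). At 400 nM in SJSA-1 these were COL11A1 (-0.49), COL11A2 (-0.21), COL13A1 (-0.65), COL16A1 (-0.55), COL18A1 (-0.61), COL19A1 (-0.19), COL20A1 (-0.12), COL22A1 (-0.12), COL23A1 (-0.15), COL24A1 (-0.11), COL25A1 (-0.47), COL26A1 (-0.16), COL27A1 (-0.32), COL3A1 (-1), COL4A5 (-0.2), COL4A6 (-0.26), COL5A1 (-0.62), COL5A3 (-0.31), COL6A1 (-0.81), COL6A2 (-0.41), COL6A3 (-0.9), COL7A1 (-0.85), COL8A1 (-0.78), COL8A2 (-0.26), COL9A1 (-0.25), COL9A2 (-0.23) and COL9A3 (-0.24). Between the untreated lines these were COL13A1 (-0.25), COL15A1 (-0.42), COL18A1 (-0.36), COL26A1 (-0.53), COL4A1 (-1.18), COL4A2 (-1.33), COL6A1 (-0.14), COL6A2 (-0.65), COL8A1 (-1.16) and COL8A2 (-0.19). In the step from 25 to 100 nM these were COL23A1 (-0.032), COL25A1 (-0.0089) and COL6A1 (-0.19). Spike-in centring without SJSA-1 400 nM replicate 2 gave 5 calls at that dose. Median centring reversed COL5A1 (0.048) and COL5A3 (0.32, called) between the untreated lines, and joint quantile normalization COL5A3 (0.21, called). The mean of probe sets reversed COL4A1 (0.14) and COL6A2 (0.31) at 400 nM in U2-OS and COL5A1 (0.26) and COL6A2 (-0.032) between the lines.

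Single probe sets reversed 22 values. These were COL6A3 (0.34) at 100 nM in U2-OS; COL6A1 (-0.25), COL3A1 (-0.063 and -0.055), COL4A1 (0.68 and 0.1), COL6A2 (0.72, 0.13 and 0.4), COL25A1 (-0.12) and COL6A3 (0.43) at 400 nM in U2-OS; and COL4A2 (0.042 and 0.0058) at 100 nM in SJSA-1. Between the untreated lines they were COL5A1 (0.34 and 1.13), COL4A5 (0.23), COL5A2 (-0.097 and -0.12), COL6A2 (-0.52 and -0.48) and COL4A1 (-0.38), and in the step COL3A1 (0.34). Signal over background limits the 13 tested collagens that were under the tested level in some group.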
